A study of Mus musculus with 48 samples.

Results

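This account is about the Toll-like receptors Tlr2, Tlr3, Tlr4 and Tlr7 and the coreceptor Cd14 in hippocampal microglia of mouse pups. They were taken by gene symbol, and all 5 were found among the 478 genes of each of the authors' 3 deposited comparison tables. Microglia, the resident macrophages of the brain, had been sorted from Balbc/Byj pups of both sexes at 17 days of age. Pups had been reared under the control condition (CTL) or under one of 2 conditions of early life stress named LB and UPS; by background knowledge, LB stands for limited bedding and UPS for unpredictable postnatal stress. Each rearing group held 16 animals, 8 males and 8 females, and the 48 lysates were hybridised to a mouse glial probe panel in 4 batches of 12, each with 2 animals of every group and sex. Per the labels, the 8 animals of each sex in a group were drawn from 4 to 5 litters, so some shared a litter. Litter does not enter the values below. Where littermates are alike, the true intervals are wider and the true p-values larger than those given, and the calls that rest on them are less sure.

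Toll-like receptors are pattern recognition receptors of innate immune cells. Tlr2 and Tlr4 sit in the plasma membrane, where Tlr2 binds bacterial lipoproteins and Tlr4 binds lipopolysaccharide. Cd14, a membrane-anchored protein with no signalling domain of its own, passes ligands to both. Tlr3 and Tlr7 sit in endosomes and bind nucleic acid, double-stranded RNA in the case of Tlr3 and single-stranded RNA in the case of Tlr7, which is X-linked. Tlr7 and Tlr2 signal through the adaptor Myd88, Tlr3 through Ticam1, and Tlr4 through both, towards NF-kB, MAP kinases and interferon regulatory factors. In the brain, microglia are among the cells that carry these receptors.

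The values are log2 ratios between the groups of a pair, with the sexes pooled, and a gene passed at a Benjamini-Hochberg adjusted p below 0.05 over the 478 genes of a table. Values of single animals and transcript levels were not analysed here, so the number of animals that followed a direction cannot be given, and no receptor is set against another by level. The tables do not name the numerator, and signs are as deposited. If the group named second is the numerator, a positive ratio in a pair with UPS means more transcript in UPS, and otherwise every sign turns together. In bulk lysates, a different make-up of the sorted cells and a different amount of RNA per microglial cell cannot be told apart. All 10 microglial marker genes reported for this check, such as Csf1r, Cx3cr1 and P2ry12, were among the genes above the authors' count minimum. That does not measure the share of other cells.

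Between CTL and UPS, 3 of the 5 receptors passed, against 4.81% of all genes. Tlr7 and Tlr4 had positive ratios and Tlr2 a negative one, where the share of all genes that passed was 3.56% on the positive side and 1.26% on the negative side. Between LB and UPS, 2 of the 5 passed, Tlr7 and Tlr4, both positive. Of all genes 6.28% passed there, 4.6% on the positive side and 1.67% on the negative side. Between CTL and LB none of the 5 passed, as was true of all genes (0%, by the authors' nSolver p with Benjamini-Hochberg adjustment), while 1 of the 5 and 56 of the 478 genes had an unadjusted p below 0.05. So neither the endosomal nor the surface receptors moved as a block: each class held 1 receptor that passed with a positive ratio in both pairs with UPS and another that did not.

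**Figure D1:**
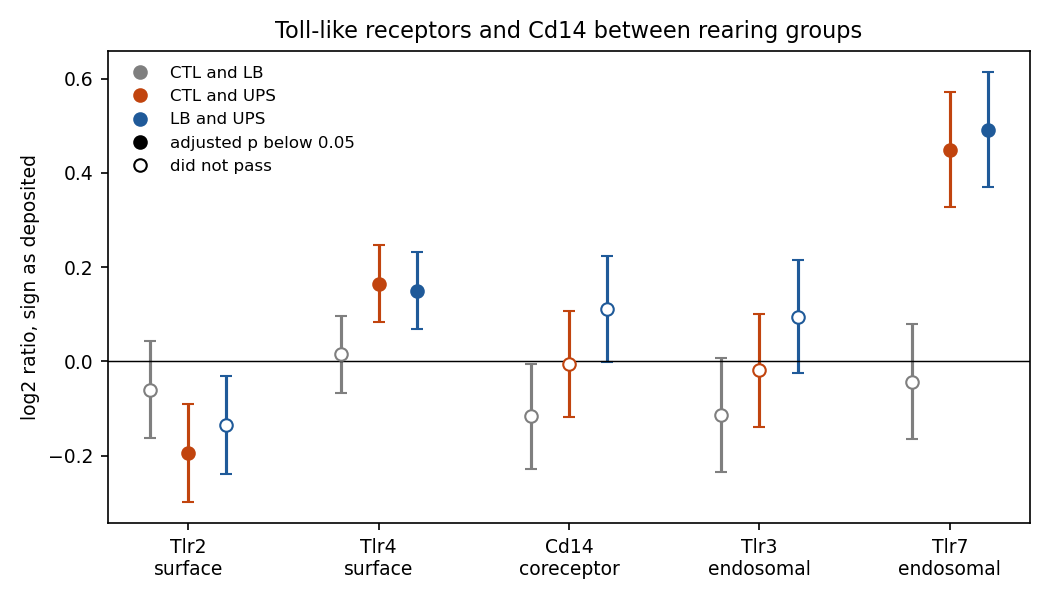
Log2 ratio of each receptor (y axis, sign as deposited) in the 3 pairs of rearing groups, with 95% intervals recovered from the deposited p-values; filled points passed at an adjusted p below 0.05. Tlr7 lies at 0.45 and 0.49 in the pairs with UPS, Tlr4 at 0.17 and 0.15, and Tlr2 is the one receptor below 0 in all 3 pairs with an interval that excludes 0 in 2 of them.

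Tlr7, the endosomal sensor of single-stranded RNA, carried the largest ratios of the 5. Its log2 ratio between CTL and UPS in the authors' deposited table was 0.45, or 1.37-fold (SE 0.060, 95% interval 1.25-fold to 1.49-fold, adjusted p = 1.65e-06). Between LB and UPS the authors' deposited table gave 0.49, or 1.41-fold (interval 1.29-fold to 1.53-fold, adjusted p = 1.66e-07). Both were the smallest p-values of their 478 genes. Between CTL and LB the authors' deposited table gave Tlr7 a ratio of -0.043 (p = 0.482, adjusted p = 0.802), with an interval from 0.892-fold to 1.06-fold. The UPS animals thus stood apart from both other groups by similar amounts, and CTL and LB differed by no more than the interval allows. For every gene the pairs with UPS share the UPS libraries, so passing in both is not a separate observation in each.

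The other endosomal receptor, Tlr3, the sensor of double-stranded RNA, did not pass in any pair. Its log2 ratio in the authors' deposited tables was -0.019 between CTL and UPS (adjusted p = 0.896), 0.095 between LB and UPS (adjusted p = 0.4) and -0.11 between CTL and LB (adjusted p = 0.444). The interval between CTL and UPS ran from 0.908-fold to 1.07-fold, which lies wholly below the interval of Tlr7 in that pair. Its standard error was 0.060, like that of Tlr7, and at that error a log2 ratio of 0.19 in size, or 1.14-fold, would have passed between CTL and UPS. A difference of the size seen for Tlr7 was therefore within reach of the measurement for Tlr3.

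Among the surface receptors, Tlr4, the lipopolysaccharide receptor, passed in both pairs with UPS. By the authors' deposited table its log2 ratio between CTL and UPS was 0.17, or 1.12-fold (SE 0.040, interval 1.06-fold to 1.19-fold, adjusted p = 0.012). The authors' deposited table gave 0.15 between LB and UPS, or 1.11-fold (interval 1.05-fold to 1.17-fold, adjusted p = 0.0144). The ratio between CTL and LB, 0.015 by the authors' deposited table (adjusted p = 0.92), had an interval from 0.955-fold to 1.07-fold. Its calls rested on the adjustment: with Bonferroni correction Tlr4 had adjusted p-values of 0.0956 and 0.287 in the pairs with UPS.

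Tlr2, the lipoprotein receptor of the same membrane, had the opposite sign. By the authors' deposited table its log2 ratio was -0.19 between CTL and UPS, or 0.874-fold (SE 0.051, interval 0.813-fold to 0.939-fold, adjusted p = 0.0199). The ratio between LB and UPS was -0.14 by the authors' deposited table, or 0.911-fold (interval 0.847-fold to 0.979-fold, p = 0.0123), which did not pass (adjusted p = 0.111). Between CTL and LB the authors' deposited table had Tlr2 at -0.060 (p = 0.253, adjusted p = 0.671). The last of these is also the measure of whether Tlr2 differed more from UPS in CTL than in LB, and it did not pass. With Bonferroni correction the adjusted p of Tlr2 between CTL and UPS was 0.237.

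Cd14, the coreceptor that hands lipopolysaccharide to Tlr4 and lipoproteins to Tlr2, passed in no pair. By the authors' deposited table its log2 ratio was -0.0062 between CTL and UPS (adjusted p = 0.969), with an interval from 0.921-fold to 1.08-fold. Of the 5 it had the ratio largest in size between CTL and LB, which the authors' deposited table puts at -0.12 (p = 0.0415, adjusted p = 0.413), and unadjusted p-values below 0.05 were found for 11.7% of all genes there. The authors' deposited table puts its ratio between LB and UPS at 0.11 (p = 0.0529, adjusted p = 0.272). Its CTL and LB ratio and its LB and UPS ratio share the LB libraries and have opposite signs, as do those of Tlr3. For both genes the LB group lay at one end and CTL and UPS close together at the other, by amounts that did not pass.

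Because the receptors were counted in the same lysates, their ratios can be set against each other within a pair, and any scaling common to all genes cancels. The correlation between genes across animals is not known here, so each interval uses the sum of the 2 standard errors, the widest that any correlation allows. Of 10 differences between receptors, the interval excluded 0 for 0 between CTL and LB, for 5 between CTL and UPS and for 7 between LB and UPS; these counts are a description, with no p-value. Within the endosomal receptors, Tlr7 exceeded Tlr3 by 0.47 on the log2 scale between CTL and UPS (interval 0.23 to 0.71) and by 0.40 between LB and UPS (interval 0.16 to 0.64). Within the surface receptors, Tlr4 exceeded Tlr2 by 0.36 between CTL and UPS (interval 0.17 to 0.54) and by 0.29 between LB and UPS (interval 0.099 to 0.47). The difference between Tlr7 and Tlr2, receptors that share the adaptor Myd88, was 0.64 between CTL and UPS (interval 0.42 to 0.87).

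Across the classes the order between CTL and UPS was Tlr7, Tlr4, Cd14, Tlr3 and Tlr2, from the most positive to the most negative ratio. Tlr7 stood above its neighbour Tlr4 by 0.28 (interval 0.081 to 0.49). The other neighbours were not separated. Cd14 minus Tlr4 was -0.17 (interval -0.37 to 0.023), Tlr3 minus Cd14 was -0.013 (interval -0.25 to 0.22), and Tlr3 minus Tlr2 was 0.18 (interval -0.049 to 0.40). Between LB and UPS, Tlr3 exceeded Tlr2 by 0.23 (interval 0.0055 to 0.45) and Cd14 exceeded Tlr2 by 0.25 (interval 0.030 to 0.46). Cd14 and Tlr4, which form a working pair in lipopolysaccharide sensing, had the same sign there, and Cd14 minus Tlr4 was -0.039 with an interval from -0.23 to 0.16.

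The series text describes a first test of rearing over all groups, and a value of that kind can be had from the 3 tables, because with equal groups the mean of the 3 squared t values is the F of the 3 rearing groups. By this F, on 2 and 42 degrees of freedom, 3 of the 5 receptors passed, against 6.9% of all genes. Tlr7 had the largest F of the 478 genes, 40.7 (adjusted p = 7.00e-08). Tlr4 was at 10.2 (adjusted p = 0.00919) and Tlr2 at 7.47 (adjusted p = 0.0277). Cd14 (2.80, adjusted p = 0.296) and Tlr3 (2.10, adjusted p = 0.395) did not pass. These values come from the same tables as the pairs and are no second line of evidence.

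Setting UPS against the mean of CTL and LB gives 1 value a gene from all 48 animals. This contrast was chosen because earlier results of these data showed UPS apart, so its values are a description. Tlr7 differed by 0.47 (SE 0.052, interval 0.36 to 0.58), Tlr4 by 0.16 (SE 0.035, interval 0.087 to 0.23) and Tlr2 by -0.16 (SE 0.045, interval -0.25 to -0.075). These 3 receptors were among the 7.32% of genes with an adjusted p below 0.05, and Tlr7 had the largest t of all. Cd14 was at 0.052 (interval -0.045 to 0.15) and Tlr3 at 0.038 (interval -0.066 to 0.14). Tlr4 and Tlr2 were of nearly equal size and opposite sign.

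**Figure D2:**
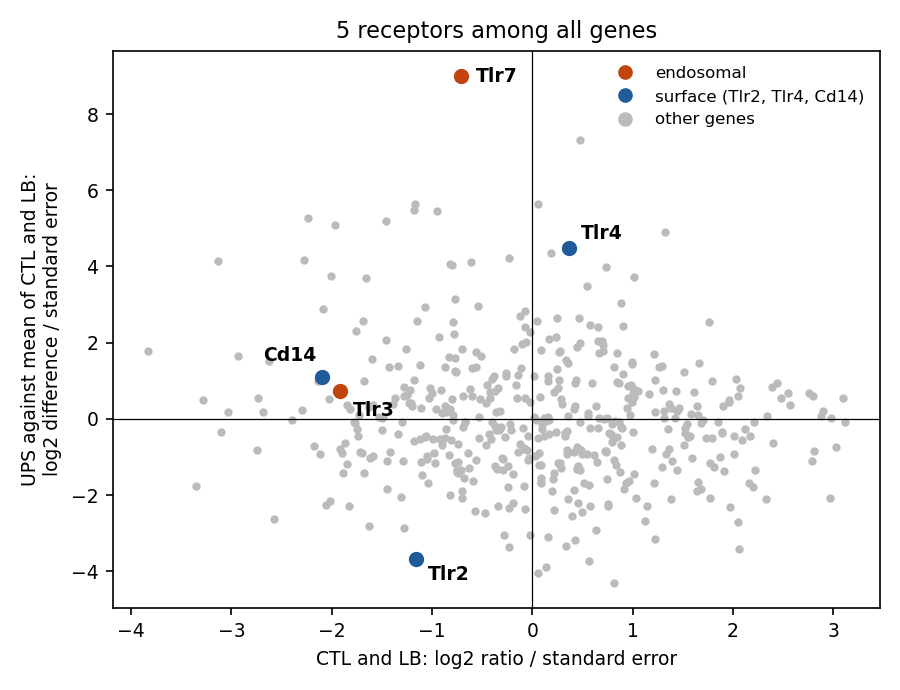
Each point is 1 gene, with its CTL and LB ratio on the x axis and its difference between UPS and the mean of CTL and LB on the y axis, both divided by their standard error. Tlr7 is the highest point, Tlr4 lies above and Tlr2 below most genes on the y axis, and Cd14 and Tlr3 lie side by side on the left, near 0 on the y axis.

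The size of a ratio can be set against how far animals of a group spread. With 16 animals a group, the recovered standard errors correspond to a residual SD between libraries of 0.11 for Tlr4, 0.15 for Tlr2, 0.16 for Cd14, 0.17 for Tlr3 and 0.17 for Tlr7 on the log2 scale, where the median of all genes was 0.14 (range 0.062 to 1.14). None of the receptors was among the most variable genes. The CTL and UPS ratio of Tlr7 came to 2.63 residual SDs, that of Tlr4 to 1.44 and that of Tlr2 to -1.33.

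Larger ratios than that of Tlr7 were held by noisier genes. Between CTL and UPS 5 genes had a larger ratio in size, Adrb1, Il1b, Kitl, Klrd1 and Mki67, with residual SDs from 0.42 to 1.02, and 1 of them passed (Kitl). Of the 316 genes with a smaller residual SD than Tlr7, 0 had a larger ratio, and the nearest was Mertk, the receptor for engulfing apoptotic cells, which the authors' deposited table puts at 0.27. Between LB and UPS 5 genes exceeded Tlr7 in size as well, and 3 of them passed.

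**Figure D3:**
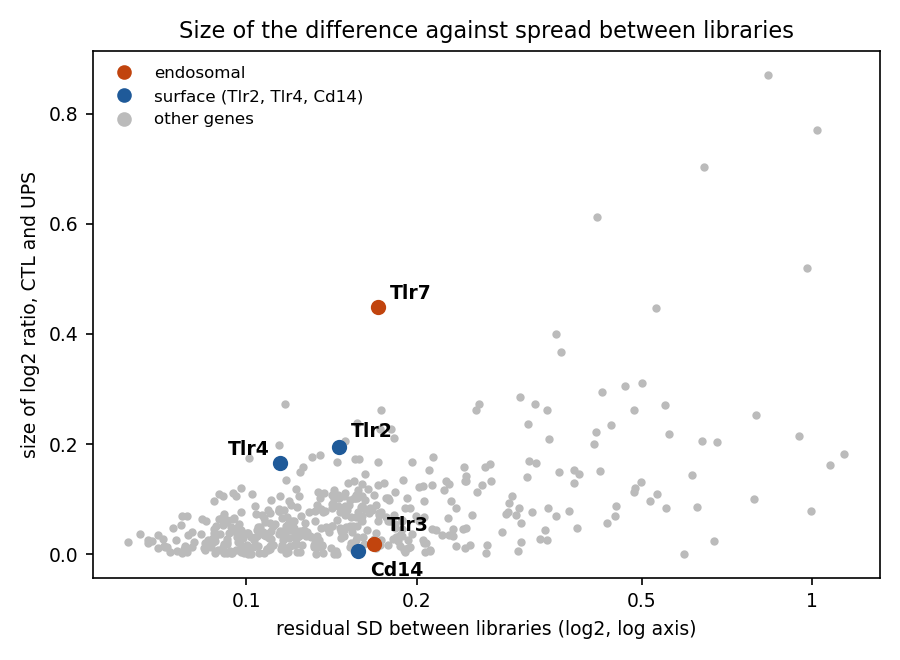
Each point is 1 gene, with its residual SD between libraries on a log x axis and the size of its CTL and UPS log2 ratio on the y axis. Tlr7 stands above every gene of equal or smaller SD, while Tlr2 and Tlr4 lie at the upper edge of the genes of like SD and Tlr3 and Cd14 near 0.

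Around the receptors, 26 of 88 listed genes of Toll-like receptor signalling had values. None of the 8 other Toll-like receptors on the list was analysed here, and neither were the adaptor Myd88, the Tlr4 partner Ly96 nor Unc93b1, the chaperone that brings Tlr3 and Tlr7 to endosomes. Between CTL and UPS, 3 of the 26 passed on the positive side and 0 on the negative side, beside 3.56% and 1.26% of all genes. Between LB and UPS the numbers were 2 and 1, beside 4.6% and 1.67% of all genes, and between CTL and LB none passed, as over all genes. With so few genes on the list these counts are a description and are not read as particular to it. The genes that passed were Pik3cb and Pik3r1, which encode subunits of PI3-kinase, the inflammasome sensor Nlrp3 and the cytokine Il1b.

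Endosomal receptors are cut to their active form by proteases in acidified endosomes. The 6 genes of this list with values were the proteases Lgmn, Ctsb, Ctsl and Ctss and the proton pump subunits Atp6v1a and Atp6v0d1. In each pair 0 of them passed. Of all genes 4.81% passed between CTL and UPS, 6.28% between LB and UPS and 0% between CTL and LB. A count of 0 among 6 is near these shares. The median log2 ratio of the 6 genes was -0.011 between CTL and UPS and 0.021 between LB and UPS, beside -0.0025 and -0.010 over all genes. Ctss, a cathepsin abundant in microglia, had the smallest p of the list, with a ratio of -0.15 by the authors' deposited table of CTL with LB (p = 0.00885, adjusted p = 0.209). The authors' deposited table of CTL with UPS has Ctss at -0.12 (adjusted p = 0.298).

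Of the adaptors and kinases, 4 of 22 had values. Ticam1, the adaptor of Tlr3 and Tlr4, was at 0.032 between CTL and LB, at 0.011 between CTL and UPS and at -0.021 between LB and UPS in the authors' deposited tables, and passed in none. Tbk1, the kinase downstream of Ticam1, was at 0.019, -0.019 and -0.039 by the authors' deposited tables, listed in the same order, and passed in none. Pik3cb, a catalytic subunit of PI3-kinase, passed between CTL and UPS with 0.18 (adjusted p = 0.0199) and between LB and UPS with 0.25 (adjusted p = 0.000317). Pik3r1, its regulatory subunit, passed with 0.16 (adjusted p = 0.0310) and 0.17 (adjusted p = 0.0122) in those pairs. Both had the sign of Tlr7 and Tlr4 in the authors' deposited tables; many receptors besides the Toll-like receptors use these subunits.

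Of the factors further down, the 6 of 21 genes with values were the MAP kinases Mapk8, Mapk9 and Mapk14, the interferon regulatory factor Irf8 and the AP-1 subunits Jun and Fos. In each pair 0 of them passed, where 4.81% of all genes passed between CTL and UPS and 6.28% between LB and UPS, so that a count of 0 is near the share over all genes. Their ratios between CTL and UPS ran from -0.029 to 0.11, with a median of -0.0090. Among them Mapk8 had the smallest p, with a ratio of -0.068 by the authors' deposited table of LB with UPS (p = 0.0856, adjusted p = 0.338).

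Of the genes that Toll-like receptor signalling is known to induce, 10 of 23 listed had values. Between CTL and LB all 10 had a positive ratio (median 0.22), between CTL and UPS 8 were positive and 2 negative (median 0.15), and between LB and UPS 2 were positive and 8 negative (median -0.18). The medians over all genes were 0.0035, -0.0025 and -0.010 in that order. These pairs share libraries, so the signs in one are not independent of those in another. The standard errors of the 10 genes ran from 0.056 (Il18) to 0.40 (Mx1), beside a median of 0.050 over all genes. The ratios of all 10 are thus known less precisely than that of a gene at the median, and a shift of the list was not tested. Il1b, the precursor of interleukin-1 beta, passed between LB and UPS with a ratio of -1.04 by the authors' deposited table (adjusted p = 0.0207) and did not between CTL and UPS (-0.87, adjusted p = 0.0798); both have the sign of Tlr2. Nlrp3 passed between CTL and UPS with a ratio that the authors' deposited table puts at 0.23 (adjusted p = 0.0206), the sign of Tlr7 and Tlr4. By the authors' nSolver comparisons, the chemokine Ccl12 was at 0.44 between CTL and LB (p = 0.00475, adjusted p = 0.194). The cytokine Il1a was at -0.25 between LB and UPS (p = 0.00475, adjusted p = 0.0614). Neither passed in any pair. The cytokine Tnf had its largest ratio between CTL and LB, 0.42 by the authors' deposited table (p = 0.0148, adjusted p = 0.272). It was at 0.31 between CTL and UPS and at -0.11 between LB and UPS by the authors' deposited tables, and it passed in no pair. The interferon-induced genes Ifit3 and Mx1, which lie downstream of nucleic acid sensors, were at 0.21 and 0.18 by the authors' deposited table of CTL with UPS. Their standard errors were 0.34 and 0.40, so that their intervals hold both 0 and the 0.45 of Tlr7. Between CTL and LB the authors' deposited table had Ifit3 at 0.637 and Mx1 at 0.547. Between LB and UPS they were at -0.423 and -0.365, opposite in sign to Tlr7, and they passed in no pair.

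**Figure D4:**
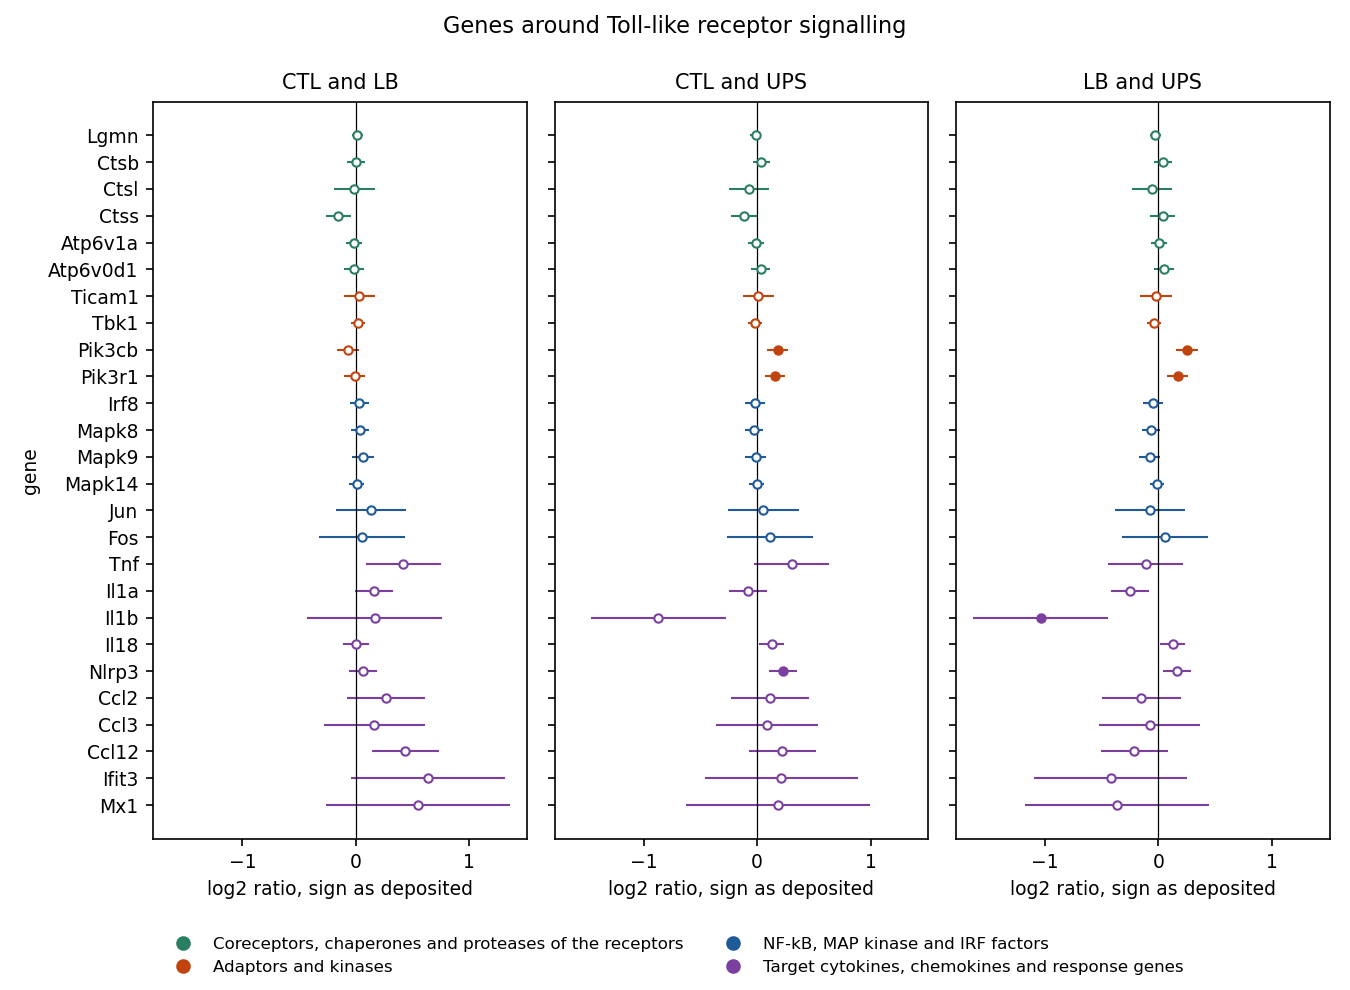
Log2 ratios (x axis, sign as deposited) with 95% intervals for the 26 genes around Toll-like receptor signalling in the 3 pairs; filled points passed at an adjusted p below 0.05. Pik3cb and Pik3r1 passed in both pairs with UPS, Nlrp3 between CTL and UPS and Il1b between LB and UPS, and intervals are widest for Ifit3, Mx1 and Il1b.

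Likeness between genes was measured as the distance between their t values over 2 ratios, CTL and LB and CTL and UPS, from which the third follows. Both ratios share the CTL libraries, so they are not independent. With so few comparisons the distance describes size and sign only. Nearest to Tlr7 were Mertk (distance 1.47), Usp2 (2.63) and Cables1 (3.18). Mertk also passed between CTL and UPS (adjusted p = 1.37e-05) and between LB and UPS (adjusted p = 6.67e-05). Whether Tlr7 and Mertk differ was not tested. Nearest to Tlr4 were Stab1 (0.27), Stambpl1 (0.45) and Nlrp3 (0.73). Those nearest to Tlr2 were Acat1 (0.65), Cdc23 (0.70) and Cacnb2 (1.10). Cd14 and Tlr3 were among each other's 3 nearest genes (0.28), beside Sall3 for both. When distance was taken between log2 ratios instead, 1 of the 3 nearest genes was shared for each receptor.

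Few genes of other cells had values. A gene can have a value only if the panel carries it, so their number does not measure the purity of the sort. Of 45 listed markers of border macrophages, blood cells, astrocytes, oligodendrocyte lineage, neurons and vessels, 10 had values, and 2 of these passed in both pairs with UPS, with the sign of Tlr7 and Tlr4. By the authors' deposited table of CTL with UPS, Stab1, a receptor of border macrophages, was at 0.21 (adjusted p = 0.0197) and Slc1a3, a glutamate transporter of astrocytes, at 0.21 (adjusted p = 0.0461). Between LB and UPS they were at 0.20 (adjusted p = 0.0146) and 0.25 (adjusted p = 0.00996). None of 5 markers of B cells and plasmacytoid dendritic cells, which also express Tlr7, was analysed here. Of the 10 microglial markers Tmem119 passed between LB and UPS, at 0.46 (adjusted p = 0.00761), and the other 9 did not. Among these were Csf1r at 0.039 and P2ry12 at -0.073. In that pair 4 of the 10 markers had a positive ratio and 6 a negative one, with a median of -0.014. The part of Stab1, Slc1a3 or Tmem119 bearing cells in the ratios of Tlr7 and Tlr4 was not tested.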

How the data were processed

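Per the labels, 60000 sorted microglia of each pup were lysed and counted with the nCounter mouse glial panel. Each of the 3 tables the authors deposited compares 1 pair of groups over 478 genes. Per the file headers, its columns hold the log2 fold change, the same ratio on the linear scale, the p-value and that p-value after Benjamini-Hochberg adjustment. Per the series text, the authors used nSolver with batch as a covariate on genes above 20 counts. How they normalized, and the version, is not given in the sources used here. Depth per library is unknown.

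No model was refitted. The p-values were adjusted over the 478 genes of a table, and the calls equalled those of the deposited adjusted p-values for all 478 genes in each pair; printed adjusted p-values of pairs are from either, which differ by rounding. Standard errors were recovered from each log2 ratio and its two-sided p by a t distribution. The tables' standard errors of a gene differed least with 42 residual degrees of freedom, those of all 48 libraries with batch (median mismatch 0.263%; 0.273% with sex in place of batch, 1.11% for fits of 2 groups), so the exact model is not settled. The recovery, the F and the contrast were tested on simulated data. The fold column matched the log2 column to within 0.494%, and the CTL and UPS ratio equalled the sum of the others to within 0.003. Of the symbols, 476 matched RefSeq (GRCm38.p6).

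The receptors, the gene lists and the tests were chosen with earlier results of these data known. Named besides the receptors are list genes past the threshold, otherwise up to 4 a list with the smallest p, and the 3 nearest genes of each receptor. Ifit3 and Mx1 were named outside this rule. Irf8, Jun, Fos, Mapk14, Lgmn, Ctsb, Ctsl, Atp6v1a, Atp6v0d1, the marker genes and the 5 genes with larger ratios than Tlr7 were named after their values were seen. Some listed genes are not reported here, and list counts leave them out. Python 3.11.15 with SciPy 1.17.1 and pandas 2.3.3 was used. Alternatives were other adjustments, joint adjustment of the tables, centring, a filter on standard error and other degrees of freedom.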

Additional observations from a re-analysis of the deposited data

How the results depend on the processing

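With median-centred ratios, joint adjustment of the 3 tables or the deposited adjusted p, the counts of receptors past the threshold were as reported in all 3 pairs (0, 3 and 2). Stricter adjustments, by their construction, left 1 receptor, Tlr7, between CTL and UPS, between LB and UPS and by the F of the 3 groups, with Benjamini-Yekutieli and with Bonferroni; for UPS against the mean of the others 2 remained. Among genes with a standard error up to the median, 1 receptor was left in each pair with UPS, because of the 5 only Tlr4 is among them. Of 78 single calls of a receptor under an alternative, 72 held, 6 (Tlr4 and Tlr2 under the 2 stricter adjustments) were lost and 0 reversed. With 41 or 45 degrees of freedom the F and the contrast kept 3 receptors. Counts over all genes fell from 23 to 4 (Benjamini-Yekutieli), 5 (Bonferroni) and 13 (filter) between CTL and UPS, and from 30 to 13 and 11 between LB and UPS with the stricter adjustments; with joint adjustment 3 genes passed between CTL and LB. No paired analysis was possible because the tables hold comparisons of groups and no values per library, and for the same reason no replicate could be left out.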
